A study of Sus scrofa with 20 samples.

Results

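RAB GTPases are the small proteins that give each membrane compartment of a cell its identity and steer the vesicles that travel between compartments. A RAB switches between a form bound to GDP and a form bound to GTP. Exchange factors (GEFs) turn it on, GTPase-activating proteins (GAPs) turn it off, and effectors such as tethers and motor adaptors bind the active form. Each RAB is anchored to membranes by lipid tails that a transferase made of RABGGTA and RABGGTB adds with the help of the escort protein CHM, and GDP dissociation inhibitors (GDIs) lift it off again. In skeletal muscle the family is best known for the glucose transporter GLUT4, which RABs under the control of the GAPs TBC1D1 and TBC1D4 bring to the fibre surface after insulin or contraction. The roles given below are those known from human, mouse and rat cells unless another species is named.

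The RAB genes described here are all those on the Porcine Snowball array whose single gene symbol consists of RAB, a number and at most 1 letter A to D. They are read by 83 of the 45922 porcine probe sets tested and amount to 44 of the 13609 genes named on the array. The rule uses symbols alone and no measured value. Signals were measured in longissimus dorsi muscle of 10 Duroc and 10 PiNN pigs, all adult, with 1 array per animal. PiNN animals are Pietrain pigs homozygous for the allele of the ryanodine receptor gene RYR1 that does not cause malignant hyperthermia, taken from a line in which both alleles segregate. Both breeds were fattened at the same research station. The labels give no treatment, no litter, no sex and no array date, and they place sampling 24 h before slaughter, whereas the study describes muscle collected after slaughter for its methylation libraries; which holds for the arrays is not settled. Breed is the difference the labels give, so whatever else went with breed cannot be told apart from it.

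Array medians ran from 4.61 to 4.73 on the log2 scale, and arrays correlated with each other at 0.953 to 0.986. The 69 background probe sets averaged 3.93, and array by array from 3.78 to 4.21, with a mean of 3.89 in Duroc and 3.96 in PiNN. The array of PiNN 49 was the one at 4.21. Of the muscle fibre markers, 14 of 15 were measured, all above background, with a mean signal of 12.7 to 13.0 in Duroc animals and also 12.7 to 13.0 in PiNN animals. None of those 14 passed limma, 2 had an unadjusted p under 0.05, and 1 passed the ANOVA of the study's methods. None of the 30 measured markers of fat cells, endothelium, fibroblasts, leukocytes and nerve passed limma or that ANOVA, and 4 had an unadjusted p under 0.05. Of 3 measured red blood cell markers, ALAS2 was lower in Duroc (adjusted p = 0.0327 from limma). HBB, the beta chain of haemoglobin, had means of 6.41 in Duroc and 7.57 in PiNN and differed by -1.16 (adjusted p = 0.0527 from limma). Both had an unadjusted p under 0.05, whereas SLC4A1 differed by -0.01 (adjusted p = 0.974 from limma). None of the 3 passed the ANOVA. The mean signal of these 3 ran from 4.58 to 5.63 in Duroc animals and from 5.21 to 6.19 in PiNN animals. The part of blood in the results below was not tested. Array background was entered as a covariate in 1 alternative fit, given below, and its part was not tested otherwise. In whole muscle, fewer cells of a type and less RNA per cell cannot be told apart.

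Few RAB genes passed the test between the breeds, and those that did differed in both directions. RAB10 and 1 probe set of RAB30 were higher in Duroc, whereas RAB32 and 1 probe set of RAB19 were lower. All differences are Duroc minus PiNN in log2 signal, tested with limma against the spread between animals, with p-values adjusted over all 45922 probe sets and a threshold of 0.05. Of the 83 RAB probe sets 4 passed, 2 higher and 2 lower in Duroc, which is 4.82%. Over all probe sets 4.17% passed, 2.76% higher and 1.41% lower in Duroc. With the brightest probe set taken for each gene, 3 of 44 RAB genes passed (6.82%), 1 higher and 2 lower in Duroc, against 6.39% of all named genes, 4.06% higher and 2.33% lower in Duroc. An unadjusted p under 0.05 was found for 8 of the 44 (18.2%), 6 of them higher in Duroc, against 22.2% of all named genes. At that level 1520 of the 13609 named genes were higher and 1495 lower in Duroc. The shares of the RAB genes therefore lay close to those of the array. Their median difference was 0.07, against -0.03 over all named genes, and the median size of the difference regardless of sign was 0.13, against 0.12. The plot of differences by role shows how the 44 genes spread around 0.

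**Figure D1:**
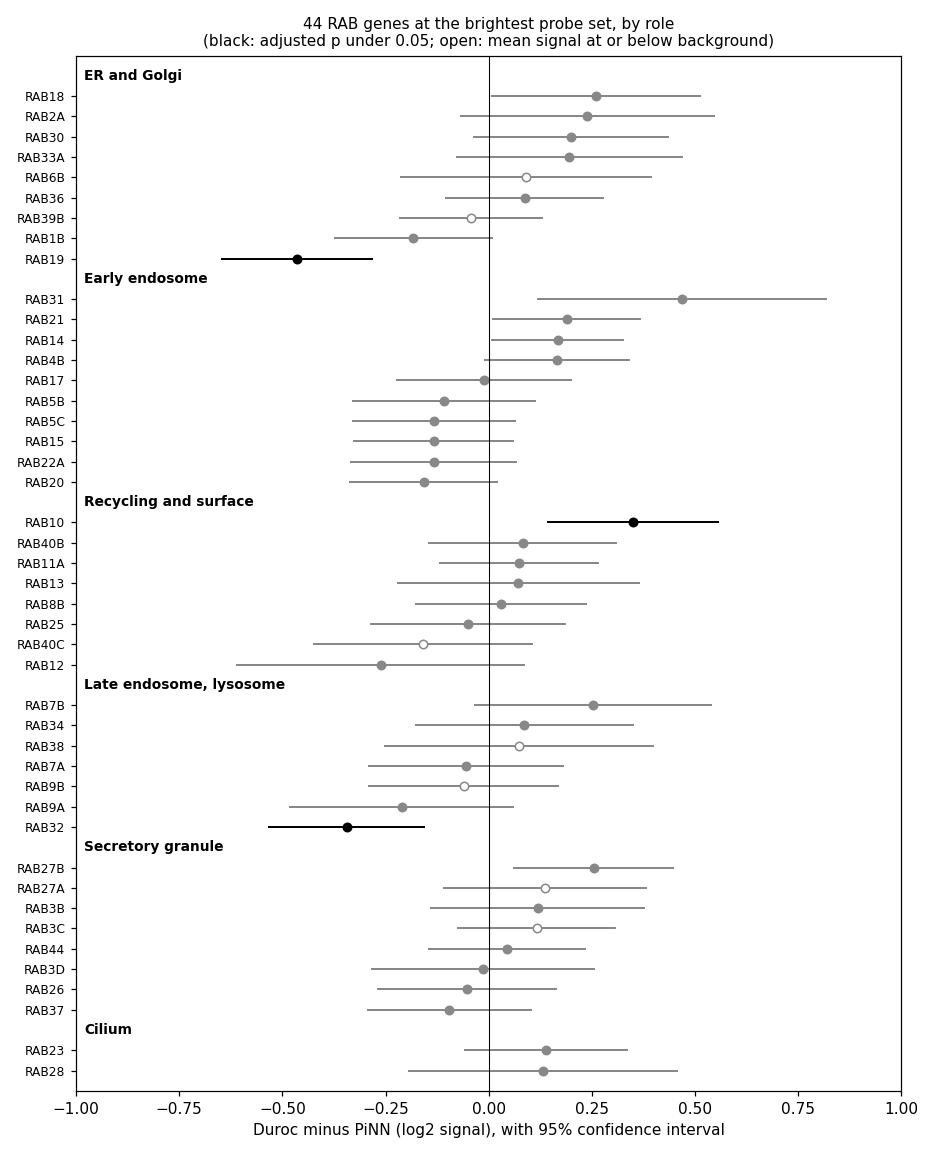
Difference in signal (Duroc minus PiNN, log2; horizontal axis) of 44 RAB genes at the brightest probe set, grouped by role, with 95% confidence intervals from limma; black marks an adjusted p under 0.05 and open points a mean signal at or below background. RAB10 (0.35) stands right of 0, RAB32 (-0.34) and RAB19 (-0.46) stand left of it, and 41 genes did not pass.

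For 37 of the 44 genes the brightest probe set lay above the mean of the background probe sets. RAB6B, RAB39B, RAB38, RAB9B, RAB40C, RAB27A and RAB3C did not, and their differences ran from -0.16 to 0.14 without any passing. A single probe set read 25 of the genes. Among 11 genes with several probe sets above background, the differences pointed one way in 8, including RAB10, RAB12, RAB22A and RAB30, and both ways in RAB19, RAB23 and RAB9A.

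RAB10 carries GLUT4 vesicles to the surface of mouse fat cells and also serves recycling from endosomes. It was the gene of the recycling and surface group that passed. At probe set SNOWBALL_005133_st the signal ran from 8.98 through a median of 9.30 to 9.50 in Duroc animals, and from 8.48 through 8.94 to 9.27 in PiNN animals. The ranges overlapped, but all 10 Duroc animals lay above the PiNN median and 6 PiNN animals lay below every Duroc animal. Duroc animals averaged 9.27 ± 0.20 and PiNN animals 8.92 ± 0.23 (SD, n = 10 each), and the breeds differed by 0.35 (standard error 0.10, adjusted p = 0.0466), or 1.27-fold. Both other probe sets of RAB10 pointed the same way without passing. SNOWBALL_005468_st differed by 0.24 (adjusted p = 0.113) and SNOWBALL_047269_st by 0.30 (adjusted p = 0.170). When the probe sets of each gene were averaged before the fit, RAB10 differed by 0.30 (adjusted p = 0.0436). In that averaged fit, here and below, p-values were adjusted over the 13609 named genes and not over all probe sets. Its adjusted p-values are therefore not directly comparable with those of the main fit.

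The RAB10 result lay close to the threshold. With 1 animal left out it passed in 6 of 20 fits, those without Duroc 24, 31 or 32 or PiNN 20, 47 or 62, and in the other 14 the adjusted p reached up to 0.0922, without PiNN 36. The difference stayed between 0.30 and 0.39 in those 20 fits. It was 0.25 (adjusted p = 0.0610) with the array background as a covariate, and the adjusted p by the ANOVA was 0.0546.

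RAB32 directs proteins to lysosome-related organelles such as melanosomes and anchors protein kinase A at mitochondria. Its single probe set had signals from 6.65 through a median of 6.93 to 7.12 in Duroc animals, and from 6.85 through 7.23 to 7.71 in PiNN animals. Each of the 10 Duroc animals fell under the PiNN median, and 8 PiNN animals lay above every Duroc animal. Duroc animals averaged 6.93 ± 0.14 and PiNN animals 7.27 ± 0.23 (SD, n = 10 each), and the breeds differed by -0.34 (standard error 0.09, adjusted p = 0.0324). Leaving out Duroc 28, 43, 46 or 59 or PiNN 19 or 22 took the adjusted p above 0.05, to 0.0618 at most without Duroc 59.

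RAB19, a little studied member placed at the Golgi in fruit flies, differed by probe set. At the brightest, SNOWBALL_019696_st, signals ran from 4.74 through a median of 5.00 to 5.10 in Duroc animals, and from 5.16 through 5.40 to 5.82 in PiNN animals. The groups did not overlap there, as at 1 of the 44 RAB genes and at 0.154% of all named genes. Duroc animals averaged 4.98 ± 0.11 and PiNN animals 5.45 ± 0.23 (SD, n = 10 each), and the breeds differed by -0.46 (standard error 0.09, adjusted p = 0.00476), and it passed in all 20 fits without 1 animal. At SNOWBALL_031162_st the sign was the opposite. Signals ran from 4.52 through 5.36 to 5.59 in Duroc, with 7 animals above the PiNN median, and from 4.33 through 4.83 to 5.00 in PiNN, and differed by 0.42 (adjusted p = 0.0862). SNOWBALL_031162_st passed, higher in Duroc, without Duroc 24 (adjusted p = 0.0303), without Duroc 31 (0.0431) and with array weights (0.0158). At SNOWBALL_033171_st the difference was -0.07 (adjusted p = 0.738). Averaged over its probe sets, RAB19 differed by -0.04 (adjusted p = 0.804). The annotation gives only the gene symbol of each probe set, so which RAB19 transcript each one reads is not known here.

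RAB30, which helps to keep the Golgi in shape, had 5 probe sets, 3 of them above background. At SNOWBALL_035965_st Duroc animals ran from 4.98 through a median of 5.45 to 5.83, and PiNN animals from 4.09 through 4.71 to 5.33. All 10 Duroc animals lay above the PiNN median and 8 PiNN animals lay below every Duroc animal. Duroc animals averaged 5.46 ± 0.25 and PiNN animals 4.71 ± 0.38 (SD, n = 10 each), and the breeds differed by 0.75 (standard error 0.14, adjusted p = 0.00383), or 1.68-fold, and this passed in every fit without 1 animal. The brightest probe set of the gene, SNOWBALL_012308_st, differed by 0.20 (adjusted p = 0.394) and SNOWBALL_038047_st by 0.05 (adjusted p = 0.848). The 2 probe sets below background differed by 0.39 and 0.16 and did not pass. All 5 thus had higher means in Duroc, and averaged over them RAB30 differed by 0.31 (adjusted p = 0.0405). The plot of single animals shows these probe sets side by side.

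**Figure D2:**
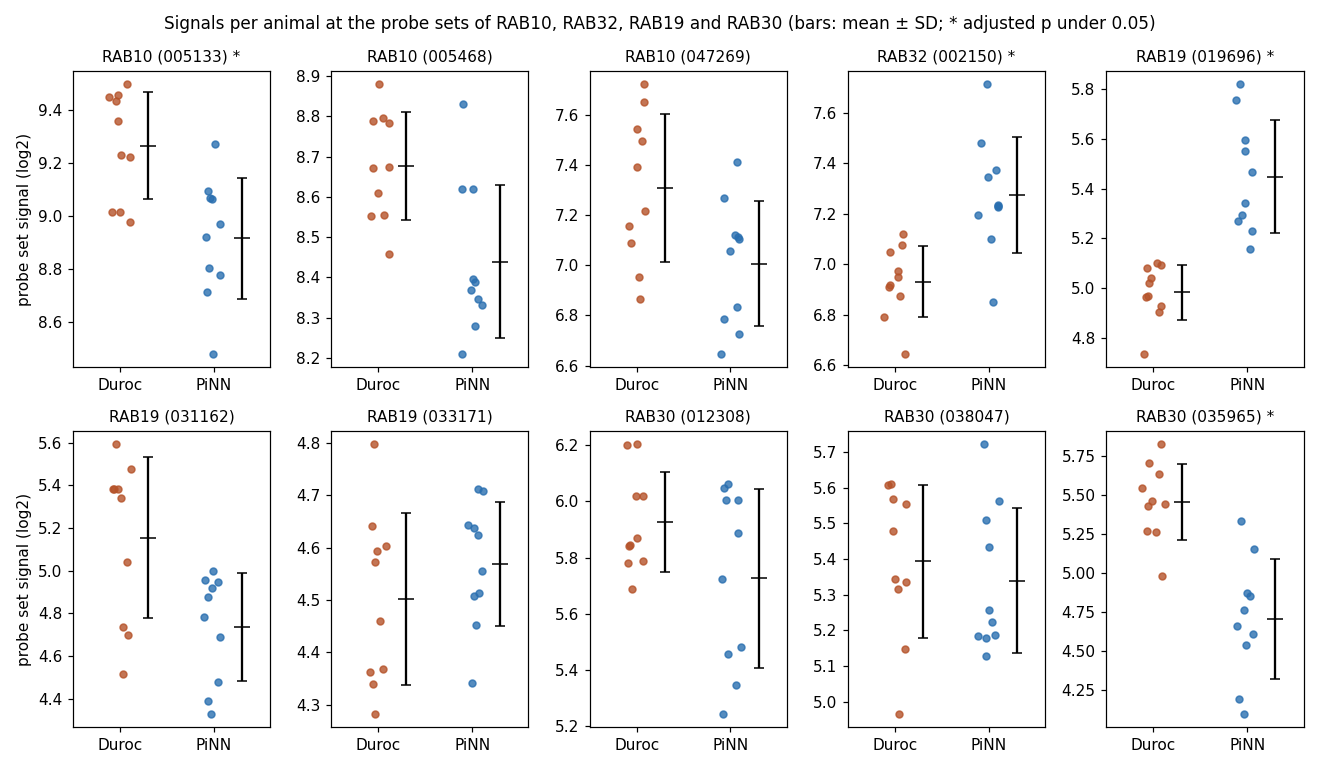
Probe set signal (log2; vertical axis, with its own range in each panel that does not start at 0) of each Duroc and PiNN animal (points, n = 10 each) at the probe sets above background of RAB10, RAB32, RAB19 and RAB30, with the mean ± SD beside the points; a star marks an adjusted p under 0.05. The breeds separate fully at SNOWBALL_019696_st of RAB19 (at most 5.10 in Duroc, at least 5.16 in PiNN) and overlap at the other probe sets shown.

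Among the 9 genes of traffic between endoplasmic reticulum and Golgi, RAB19 was the one that passed at its brightest probe set. RAB18, which acts at the endoplasmic reticulum and on lipid droplets, had signals from 6.89 through a median of 7.37 to 7.64 in Duroc and from 6.52 through 7.22 to 7.42 in PiNN, a difference of 0.26 (95% confidence interval 0.01 to 0.51, adjusted p = 0.272). RAB2A, which works between both compartments, differed by 0.24 (-0.07 to 0.55, adjusted p = 0.450). RAB1B, needed for transport from the endoplasmic reticulum to the Golgi, differed by -0.18 (-0.37 to 0.01, adjusted p = 0.315). The differences of the 9 genes ran from -0.46 (RAB19) to 0.26 (RAB18).

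None of the 10 early endosome genes passed limma or the ANOVA. An unadjusted p under 0.05 was found for 3 of the 10, all higher in Duroc, against 22.2% of all named genes. These were RAB31, RAB21 and RAB14. RAB31, which moves cargo between the trans-Golgi and endosomes, had the largest difference in size of the 44 genes at the brightest probe set, with RAB19 next to it. Its signals ran from 5.74 through a median of 6.47 to 7.05 in Duroc and from 5.23 through 6.19 to 6.33 in PiNN. It also had the largest spread between animals within a breed (SD 0.41), with RAB12 (0.41) and RAB28 (0.38), and its difference of 0.47 (standard error 0.17) had an adjusted p of 0.126. Without Duroc 31 the difference was 0.55 and the adjusted p 0.0467, and in the other 19 fits without 1 animal it did not pass. RAB21, which guides integrins through early endosomes, differed by 0.19 (adjusted p = 0.252). RAB5B and RAB5C belong to the RAB5 family, on which fusion of early endosomes depends. RAB5B differed by -0.11 (-0.33 to 0.11, adjusted p = 0.679) and RAB5C by -0.13 (-0.33 to 0.06, adjusted p = 0.531). RAB4B, of the RAB4 family that serves fast recycling, differed by 0.16 (-0.01 to 0.34, adjusted p = 0.325). RAB20, found on endosomes and phagosomes, differed by -0.16 (-0.34 to 0.02, adjusted p = 0.371). The differences of the other members RAB15, RAB17 and RAB22A ran from -0.13 to -0.01.

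Of the 8 recycling and surface genes, 7 did not pass. RAB12, which sends the transferrin receptor to lysosomes, had signals from 7.53 through 8.36 to 8.56 in Duroc and from 7.52 through 8.42 to 8.94 in PiNN, a difference of -0.26 (adjusted p = 0.469). With the array background as a covariate it was -0.47 and passed (adjusted p = 0.0126). Among the RABs of the GLUT4 route, RAB8A is not named on the array. RAB14 had signals from 8.38 through 8.59 to 8.68 in Duroc and from 8.05 through 8.40 to 8.64 in PiNN. Its difference was 0.17 (0.01 to 0.33, adjusted p = 0.257). RAB13, used by cultured rat muscle cells for GLUT4, differed by 0.07 (-0.22 to 0.36, adjusted p = 0.864). RAB10 was therefore the one of these 3 measured genes that passed. RAB8B, the paralog of RAB8A, differed by 0.03 (-0.18 to 0.24, adjusted p = 0.929). RAB11A marks the recycling endosome and is bound by RAB11FIP2 and EXOC6, described below. It differed by 0.07 (-0.12 to 0.27, adjusted p = 0.768) at its brightest probe set.

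RAB32 was the one of 7 late endosome and lysosome genes that passed. RAB7A, which drives the fusion of late endosomes with lysosomes, had signals from 9.95 through a median of 10.30 to 10.54 in Duroc and from 9.67 through 10.32 to 10.71 in PiNN. The difference was -0.06 (-0.29 to 0.18, adjusted p = 0.872). Another RAB7A probe set, SNOWBALL_015474_st, lay below background, with signals from 2.10 through 2.71 to 3.17 in Duroc and from 2.23 through 3.25 to 3.78 in PiNN. It differed by -0.45 (adjusted p = 0.175), and it passed without PiNN 49 (-0.56, adjusted p = 0.0494) and without PiNN 49 and 62 (-0.61, adjusted p = 0.0325). RAB7B, which acts between lysosomes and the trans-Golgi, differed by 0.25 (-0.03 to 0.54, adjusted p = 0.370). RAB9A, needed for return from late endosomes to the Golgi, differed by -0.21 (adjusted p = 0.448) at its brightest probe set and by 0.13 (adjusted p = 0.763) and -0.06 (adjusted p = 0.835) at the other 2 above background. None of 8 secretory granule genes and none of 2 cilium genes passed limma or the ANOVA. RAB27B, which docks secretory granules at the surface, was the secretory gene with an unadjusted p under 0.05, at 0.25 (0.06 to 0.45, adjusted p = 0.136). RAB26, found on secretory vesicles, differed by -0.05 (adjusted p = 0.865). The RAB3 genes, which regulate exocytosis, differed by 0.12 (RAB3B, adjusted p = 0.709), 0.12 (RAB3C, below background, adjusted p = 0.584) and -0.01 (RAB3D, adjusted p = 0.975). The cilium genes RAB23, a brake on Hedgehog signalling, and RAB28 differed by 0.14 (adjusted p = 0.506) and 0.13 (adjusted p = 0.753).

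Of 117 measured regulators and effectors 12 passed (10.3%), 10 higher and 2 lower in Duroc, against 6.39% of all named genes, 4.06% higher and 2.33% lower in Duroc. An unadjusted p under 0.05 was found for 44 (37.6%), of which 26 were higher in Duroc, against 22.2% of all named genes. Whether these shares differ from those of the array or of the RAB genes was not tested. Effectors held 8 of the 12. Of 52 measured, 8 were higher in Duroc (15.4%, against 4.06% of all named genes) and none was lower in limma (2.33% of all named genes). At an unadjusted p under 0.05, however, 5 were lower and 13 higher (34.6%, against 22.2% of all named genes), and 1 was lower by the ANOVA. The median difference of the 52 was 0.01.

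EEA1, the tether of RAB5 vesicles, had signals from 6.99 through a median of 7.71 to 8.31 in Duroc and from 6.43 through 6.85 to 7.22 in PiNN. All 10 Duroc animals lay above the PiNN median, and the difference was 0.80 (standard error 0.17, adjusted p = 0.00819), or 1.74-fold. Of the 2 probe sets of EEA1, 1 lay above background and 1 passed. Averaged over both before the fit, EEA1 differed by 0.39 (adjusted p = 0.0172). APPL1, which binds RAB5 and RAB21 on signalling endosomes, ran from 8.12 through 8.62 to 8.81 in Duroc and from 7.50 through 8.04 to 8.35 in PiNN. Its difference was 0.60 (standard error 0.10, adjusted p = 0.00314), and 2 of its 3 probe sets passed. RABEP1, which binds RAB4 and RAB5, differed by 0.49 (adjusted p = 0.0461), and all 3 of its probe sets passed. Several relatives of the effectors that passed and another RAB5-binding protein, named here after their values were seen, did not pass. APPL2 differed by 0.16 (adjusted p = 0.562), RABEP2 by 0.04 (adjusted p = 0.918), RUFY1 by -0.18 (adjusted p = 0.574) and the inositol phosphatase OCRL by -0.24 (adjusted p = 0.178). RUFY3 did not pass at its brightest probe set either, with signals there from 6.44 to 7.61 in Duroc and from 6.29 to 6.92 in PiNN. Averaged over all its probe sets before the fit, which is another measure, RUFY3 differed by 0.24 (adjusted p = 0.0609). The effector OPTN did not pass at its brightest probe set, with signals from 10.04 to 11.05 in Duroc and from 9.83 to 10.40 in PiNN. Averaged in the same way, OPTN differed by 0.47 (adjusted p = 0.0257).

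EHBP1 binds RAB8 and RAB10 and links them to actin. Its signals ran from 6.53 through a median of 6.90 to 7.10 in Duroc and from 5.81 through 6.24 to 6.61 in PiNN, with 9 PiNN animals below every Duroc animal. The difference was 0.65 (standard error 0.11, adjusted p = 0.00230). RUFY2, an endosomal RAB-binding protein, differed by 0.64 (adjusted p = 0.00577), and both of its probe sets passed. USO1, the RAB1 tether of vesicles at the Golgi, differed by 0.64 (adjusted p = 0.0181). RAB11FIP2, which joins RAB11 vesicles to myosin V, differed by 0.53 (adjusted p = 0.0364), and all 4 of its probe sets had higher means in Duroc. EXOC6, the exocyst subunit that RAB11 binds, differed by 0.51 (adjusted p = 0.0463).

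EEA1, APPL1, EHBP1, RUFY2 and USO1 passed in all 20 fits without 1 animal. EXOC6 and RAB11FIP2 failed in 14 each and RABEP1 in 16. The number of effectors higher in Duroc was 5 without Duroc 28, 38, 42, 43, 46, 58 or 59 or PiNN 19, 21, 22, 35, 36 or 49, and up to 11 without Duroc 31. It was also 5, with 1 lower in Duroc, with the array background as a covariate. Among all 117 regulators that covariate gave 7 higher and 7 lower in Duroc, against 10 and 2 without it.

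**Figure D3:**
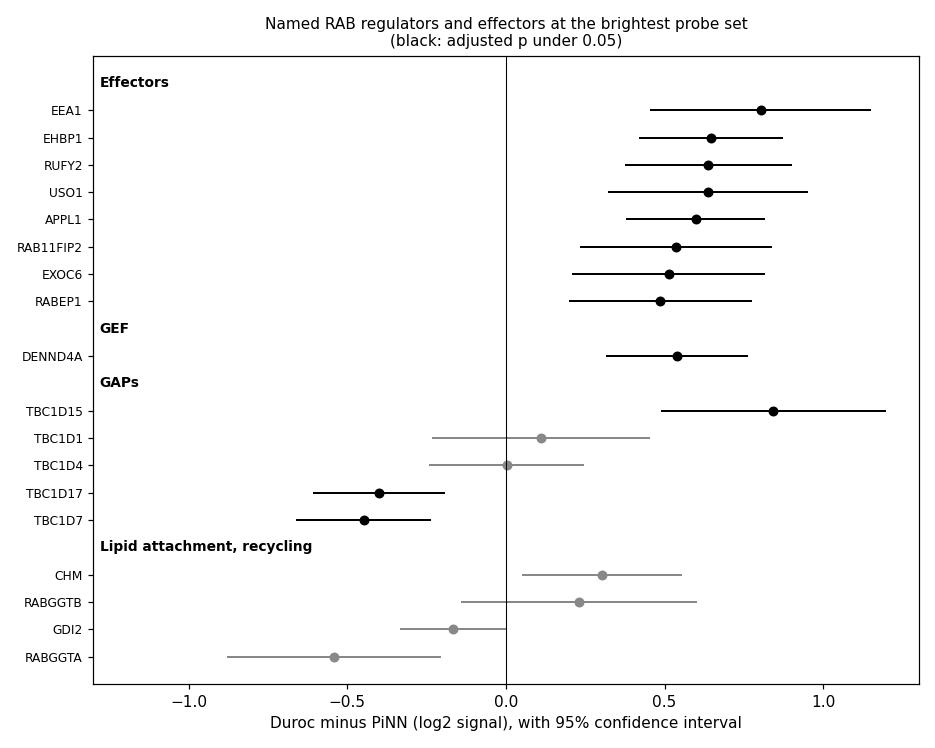
Difference in signal (Duroc minus PiNN, log2; horizontal axis) of the named RAB effectors, the GEF DENND4A, GAPs and lipid attachment and recycling proteins at the brightest probe set, with 95% confidence intervals from limma; black marks an adjusted p under 0.05. The effectors that passed lie between 0.49 (RABEP1) and 0.80 (EEA1), while TBC1D17 (-0.40) and TBC1D7 (-0.45) lie left of 0.

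Of 27 measured GEFs, DENND4A passed at the brightest probe set (3.70%, against 6.39% of all named genes). An unadjusted p under 0.05 was found for 13 of the 27 (48.1%, against 22.2% of all named genes), 6 of them higher and 7 lower in Duroc. The median difference of the 27 was -0.10. DENND4A activates RAB10, and its signals ran from 6.87 through a median of 7.13 to 7.48 in Duroc and from 6.11 through 6.60 to 7.01 in PiNN, and the breeds differed by 0.54 (standard error 0.11, adjusted p = 0.00599). The related RAB10 exchange factor DENND4C, named here after its values were seen, differed by 0.31 (adjusted p = 0.130) at its brightest probe set. With the probe sets of each gene averaged before the fit, DENND4C differed by 0.39 (adjusted p = 0.0367) and DENND4A by 0.32 (adjusted p = 0.0387). In that fit the exchange factors DENND5B (0.31, adjusted p = 0.0256) and MON1A (-0.31, adjusted p = 0.0299) also passed. Of 31 measured GAPs 3 passed (9.68%, against 6.39% of all named genes), 1 higher and 2 lower in Duroc. A further count, of an unadjusted p under 0.05, gave 10 (32.3%, against 22.2% of all named genes), 6 of them higher and 4 lower in Duroc. TBC1D15, a GAP for RAB7, had signals from 5.42 through 6.40 to 6.81 in Duroc and from 4.84 through 5.42 to 6.12 in PiNN, and the breeds differed by 0.84 (standard error 0.17, adjusted p = 0.00655). TBC1D7, known as a subunit of the TSC complex that restrains mTORC1, ran from 5.17 through 5.77 to 5.94 in Duroc and from 5.73 through 6.21 to 6.48 in PiNN, with 9 PiNN animals above every Duroc animal. The difference was -0.45 (adjusted p = 0.0141). TBC1D17, a GAP for RAB8, differed by -0.40 (adjusted p = 0.0234).

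The GAPs of the GLUT4 route did not pass. TBC1D4 had signals from 8.55 through a median of 8.98 to 9.32 in Duroc and from 8.58 through 8.96 to 9.44 in PiNN. Duroc animals averaged 8.97 ± 0.23 and PiNN animals 8.97 ± 0.30 (SD, n = 10 each), and the interval of the difference ran from -0.24 to 0.24 (adjusted p = 0.996). TBC1D1 differed by 0.11 (-0.23 to 0.45, adjusted p = 0.812).

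None of 7 measured genes of lipid attachment and recycling passed limma or the ANOVA at the brightest probe set. Of these 7, 3 had an unadjusted p under 0.05 (42.9%, against 22.2% of all named genes). RABGGTA, the subunit alpha of the transferase, had signals from 6.75 through a median of 6.90 to 7.42 in Duroc and from 6.56 through 7.69 to 8.13 in PiNN. Each of the 10 Duroc animals fell under the PiNN median, and 7 PiNN animals lay above every Duroc animal. The difference was -0.54 (standard error 0.16, adjusted p = 0.0575), and it passed without PiNN 49 (adjusted p = 0.00841) or PiNN 62 (adjusted p = 0.0323). In the fit of averaged probe sets, adjusted over named genes, RABGGTA differed by -0.54 and passed (adjusted p = 0.0379). Its partner RABGGTB differed by 0.23 (-0.14 to 0.60, adjusted p = 0.576). CHM differed by 0.30 (adjusted p = 0.176). GDI2 differed by -0.17 (adjusted p = 0.281).

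Signals of RAB10 and of proteins that act with it were also compared animal by animal within each breed, in 18 relations chosen after the breed differences were seen. Signals at SNOWBALL_005133_st and SNOWBALL_047269_st of RAB10 moved together in Duroc (Pearson's r = 0.912, Spearman's rho = 0.806, permutation adjusted p = 0.00621 for r and 0.0409 for rho, n = 10) and in PiNN (r = 0.933, rho = 0.830, permutation adjusted p = 0.00216 and 0.0409, n = 10). Without the 2 animals farthest from the median, r was 0.917 in Duroc and 0.882 in PiNN. SNOWBALL_005133_st and SNOWBALL_005468_st of RAB10 moved together in Duroc (r = 0.865, rho = 0.867, permutation adjusted p = 0.0121 and 0.0400, n = 10), and r was 0.825 without the 2 farthest animals. In PiNN that pair did not pass (r = 0.530, rho = 0.370, permutation adjusted p = 0.213 and 0.444, n = 10), and r was 0.158 without the 2 farthest. RAB10 and EHBP1 had r = 0.719 and rho = 0.636 in Duroc (permutation p = 0.0244 and 0.0537, adjusted p = 0.0976 and 0.241, n = 10), and r was 0.460 without the 2 farthest animals. In PiNN that pair had r = 0.549 and rho = 0.515 (permutation p = 0.0981 and 0.132, adjusted p = 0.213 and 0.339, n = 10), and r was 0.615 without the 2 farthest. None of the relations of RAB10 with EHBP1, DENND4A, DENND4C, TBC1D1 or TBC1D4, nor of EEA1 with APPL1 or RABEP1, passed the adjustment in either breed. Of the Duroc arrays, those of animals 24, 31 and 32 had the highest background (4.07, 4.10 and 4.05). The same animals had the lowest Duroc signals at SNOWBALL_005133_st, SNOWBALL_047269_st and EEA1. PiNN 36 and 49 (background 4.09 and 4.21) stood in the same way among the PiNN animals. The part of array background in these relations was not tested.

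**Figure D4:**
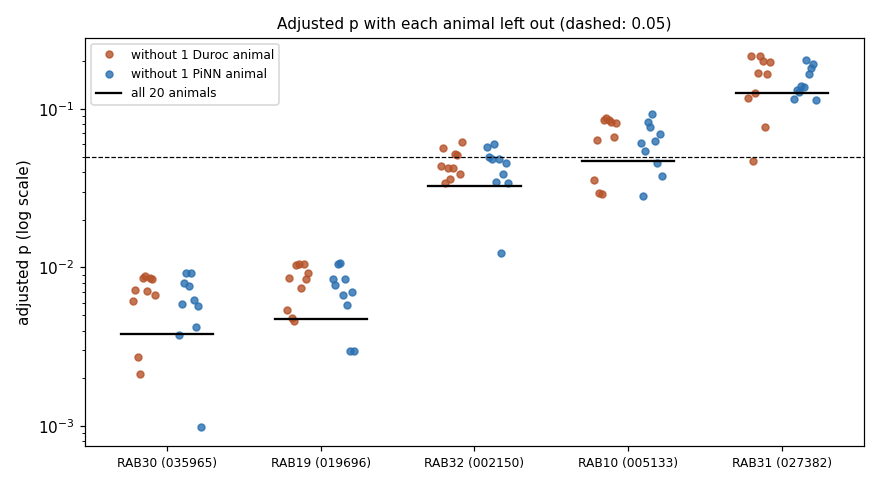
Adjusted p from limma (vertical axis, log scale) with each animal left out in turn, for the 4 RAB probe sets that passed and for RAB31; each point is 1 fit, coloured by the breed of the animal left out, the line is the value with all 20 animals and the dashed line the threshold of 0.05. RAB30 and RAB19 stay at or below 0.0106 in every fit, RAB32 and RAB10 cross the threshold, and RAB31 is below it in 1 fit.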

How the data were processed

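Total RNA of longissimus dorsi muscle was hybridised to the Affymetrix Porcine Snowball array, 1 array for each of 10 Duroc and 10 PiNN pigs. The values are log2 probe set signals as deposited, already summarized to 1 value per probe set and array. The submitters' processing notes name GCOS 1.1.1; the normalization method is not given in the sources used here. Of 47845 probe sets, 1923 control and other-species ones were not tested. Gene symbols came from the platform annotation, which gives 1 symbol for 26058 of the 45922 tested probe sets, several for 0 and none for 19864. All 44 RAB symbols also stand in the RefSeq gene table. No genome was used, so no coordinates or sequences are given.

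Breeds were compared with limma 3.58.1 in R 4.3.3 (lmFit, eBayes, two-sided, no term but breed, Benjamini-Hochberg adjustment over 45922 probe sets), and the procedure was tested on simulated data. The study's methods name an ANOVA and q-values, both run as alternatives. Each gene was represented by its brightest probe set over all 20 arrays. In the alternative fit of averaged probe sets, the adjustment was over the 13609 named genes. A probe set counted as above background when its mean exceeded 3.93, the mean of 69 background probe sets. Every difference is thus set against the spread between animals, and the number of arrays limits its precision.

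Genes were named by a rule. It took every RAB gene with a passing probe set, the gene of each role group with the highest mean signal and the one with the largest difference, RABs of GLUT4 routes, paralogs with the same number as a passing gene (none), the 3 RAB genes above background with the largest spread within breeds, every regulator that passed, and TBC1D1, TBC1D4, GDI2, CHM, RABGGTA and RABGGTB. RAB18, RAB21, RAB1B, RAB5C, RAB4B, RAB20, RAB8B, RAB11A, RAB7B, RAB9A, the RAB3 genes, DENND4C, DENND5B, MON1A, APPL2, RABEP2, RUFY1, RUFY3, OPTN, OCRL and SNOWBALL_015474_st of RAB7A were added after their values were seen. The RAB genes, the gene lists and the alternatives were chosen with earlier results of these data known. Correlations used 100000 permutations.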

Additional observations from a re-analysis of the deposited data

Results flagged for a closer look

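In 13 of 126 groups of 10 animals (63 RAB and named regulator probe sets, each in both breeds), 1 animal stood apart from the others by Dixon's criterion, which chance alone meets in about 1 group in 20. PiNN 49 was that animal at 4 genes, always as the lowest, at 9.09 for RAB5B, 7.28 for RAB5C, 6.50 for RAB22A and 5.85 for the GAP TBC1D1. For RAB5B, RAB5C and RAB22A the next lowest PiNN signals were 9.73, 7.80 and 6.87. PiNN 49 was the lowest PiNN animal at 13 of the 44 RAB genes at their brightest probe sets, of several roles, among them RAB7A (9.67), RAB11A (8.37) and RAB12 (7.52). Over those 44 signals its median deviation from the mean of all 20 animals was -0.13, the lowest of the 20 arrays. The array of PiNN 49 also had the highest background, and the part of that background in these values was not tested. Without it RAB5B differed by -0.19 (adjusted p = 0.217), against -0.11 with all animals. Duroc 46 stood apart at 3 genes. It was lowest at 5.17 for TBC1D7 and at 8.34 for GDI2, and highest at 3.99 for RAB39B, which lay below background on average. Without Duroc 46, TBC1D7 differed by -0.39 and still passed.

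Duroc 42 was lowest for RAB33A at 3.86 and highest for RAB3D at 5.95. Duroc 31 was highest for RAB20 at 6.13, and Duroc 43 was highest for RAB27A at 4.63. PiNN 20 was highest for RAB8B at 7.11. PiNN 36 was lowest for RABEP1 at 7.70, against 8.33 for the next PiNN animal, and without PiNN 36 RABEP1 differed by 0.40 and did not pass.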

How the results depend on the processing

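No paired analysis was possible because the labels match no Duroc animal with a PiNN animal. Of 306 values of 34 named probe sets under 9 other settings, 270 kept direction and side of the threshold, 17 no longer passed, 7 newly passed and 12 changed sign. The sign changes with the array background as a covariate were RAB26 (0.026), RAB13 (-0.024), RAB28 (-0.024), TBC1D4 (-0.017), RABGGTB (-0.0021) and TBC1D1 (-0.054). Without PiNN 49 and 62 they were RAB13 (-0.021), TBC1D4 (-0.012) and TBC1D1 (-0.013), and TBC1D4 was also -0.020 after quantile normalization, -0.0064 after median centring and -0.013 with array weights. Without single animals TBC1D4 ran from -0.041 to 0.054.

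RAB10 did not pass with the ANOVA (adjusted p = 0.0546), median centring (0.0792), a variance trend with robust fitting (0.0515), the background covariate (0.0610) or without PiNN 49 and 62 (0.0571). EXOC6 did not pass in 5 of the 9, RABEP1 in 4 and RAB11FIP2 in 3. SNOWBALL_019696_st of RAB19, RAB32 and SNOWBALL_035965_st of RAB30 passed in all 9. With array weights SNOWBALL_031162_st of RAB19 passed too, with the opposite sign (0.51, adjusted p = 0.0158). RAB12 newly passed with the background covariate, the RAB7A probe set SNOWBALL_015474_st, below background, without PiNN 49 and 62 (adjusted p = 0.0325), and RABGGTA in 6 settings, with an adjusted p between 0.00214 and 0.0437. Array weights raised the passing probe sets from 1917 to 3135 and the regulators from 12 to 19. Without single animals these counts ran from 1174 (without PiNN 36) to 2489 (without Duroc 31) and from 9 to 18, that of RAB probe sets from 2 to 6, that of RAB genes from 1 to 4, and the median RAB difference from 0.03 to 0.08. RAB genes were at 1, and RAB probe sets at 2, without Duroc 28, 43, 46 or 59 or PiNN 19 or 22. The median RAB difference was 0.02 without PiNN 49 and 62. Of all passing probe sets 66.1% were higher in Duroc, against 48.5% with the background covariate and 53.9% without PiNN 49 and 62. The cause of these changes was not tested. Signals at or below background, as for 28 of the 83 RAB probe sets, give no firm level of the genes they name.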
